A study of Homo sapiens with 2 samples.

Results

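The YAP and TEAD pathway genes described here are 10 protein-coding genes: the coactivators YAP1 and WWTR1, the DNA-binding factors TEAD1, TEAD2, TEAD3 and TEAD4, and the target genes CCN1, CCN2, ANKRD1 and AMOTL2. They were chosen by name, out of 20037 protein-coding genes, with earlier results of these data known. The assay was ATAC-seq, which reads open DNA through adapters that a transposase (Tn5) places there. The cells were U2OS, a human line derived from an osteosarcoma. One library came from U2OS cells infected with sh-VNGD, a hairpin that targets Vanguard, a long non-coding RNA. The other came from cells infected with the control hairpin sh-ctrl. With 1 library a group no difference below has a replicate check or a test, and every interval is a 95% interval for counting error alone. Whether the hairpin lowered its RNA was not measured by these data. Windows ran from 20 kb before to 20 kb after the gene bounds of RefSeq (GRCh38.p14). They held 171 of 302466 sh-VNGD peaks and 141 of 213285 sh-ctrl peaks, which merged into 209 of 359137 regions.

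YAP and its relative TAZ, the product of WWTR1, are coactivators that do not bind DNA themselves. The kinases of the Hippo pathway hold them in the cytoplasm. When they enter the nucleus they bind TEAD factors on DNA, mostly at enhancers, and switch on genes of growth, adhesion and matrix. CCN1 and CCN2 encode secreted matrix-associated proteins, ANKRD1 an ankyrin repeat protein of muscle, and AMOTL2 an angiomotin that in turn restrains YAP.

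The letters bound by TEAD factors stood in the stretch before the start of 3 members, which are shown because the peak over one of these stretches was found in sh-ctrl only. RefSeq (GRCh38.p14) gave the start and the 250 bases before it for 7 of the 10 members. These are printed 5′ to 3′ on the gene's strand, and capitals mark GGAATG, the TEAD motif, or TGANTCA. The latter, with any base allowed at N, was taken as the AP-1 motif, and both motifs were searched on both strands. CCN2 lay at chr6:131951373-131951622 (minus strand), ANKRD1 at chr10:90921088-90921337 (minus strand) and YAP1 at chr11:102110197-102110446 (plus strand).
CCN2: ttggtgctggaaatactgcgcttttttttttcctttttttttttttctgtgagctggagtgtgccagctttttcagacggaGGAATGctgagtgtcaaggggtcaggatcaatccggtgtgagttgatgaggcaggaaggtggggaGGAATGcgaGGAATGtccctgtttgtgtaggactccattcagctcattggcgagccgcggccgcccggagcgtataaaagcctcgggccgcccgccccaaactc
ANKRD1: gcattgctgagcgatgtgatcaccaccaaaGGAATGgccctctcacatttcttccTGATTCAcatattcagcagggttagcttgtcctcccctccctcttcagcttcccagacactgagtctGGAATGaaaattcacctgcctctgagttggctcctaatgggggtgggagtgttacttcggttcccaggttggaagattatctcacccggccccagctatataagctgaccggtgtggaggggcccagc
YAP1: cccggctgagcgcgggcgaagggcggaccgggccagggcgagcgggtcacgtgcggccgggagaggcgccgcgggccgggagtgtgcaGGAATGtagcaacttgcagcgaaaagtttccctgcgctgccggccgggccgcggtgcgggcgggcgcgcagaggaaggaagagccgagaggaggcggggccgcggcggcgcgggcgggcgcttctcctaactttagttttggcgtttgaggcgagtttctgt
CCN2 held 3 TEAD motifs, beginning 169, 104 and 95 bases before the start. ANKRD1 held 2, beginning 220 and 128 bases before it, and 1 AP-1 motif that began 195 bases before it. YAP1 held 1 TEAD motif, and WWTR1, TEAD2, TEAD3 and AMOTL2 held neither motif. Among 15842 promoters of the same length, 10.1% held at least 1 TEAD motif, 0.751% at least 2 and 0.0884% at least 3, and 5.04% held an AP-1 motif. A match describes the letters alone.

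The height of a region is its pileup, the number of tags that cover the peak summit, which is not scaled for depth. Regions with a pileup of at least 30 tags in either library are called strong. The log2 ratio divides sh-VNGD by sh-ctrl pileups, each per kept tag of its library, minus −0.38, the median over the 61389 strong regions with a peak in both libraries. Kept tags numbered 31326715 in sh-VNGD against 22931980 in sh-ctrl, after 35% of tags in sh-VNGD against 56% in sh-ctrl had been dropped as repeats. Equal pileups give a centred log2 ratio of −0.07. A start region lay within 1000 bp of the gene start. A distal region lay elsewhere in the window and over 1000 bp from the ends of other protein-coding genes. Of the strong regions with a peak in both libraries, 26 of 37 distal ones and 3 of 8 at starts (1 for each gene) had a ratio below 0, as did 50.6% of all distal regions and 64.5% of all gene starts. CCN2, counted above 0, turns when its peaks are joined, as given with that gene.

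The cell label could not be tested closely with peaks at gene starts. Of 13 mesenchymal and osteoblast markers, 8 had a start peak in sh-VNGD and 7 in sh-ctrl. VIM, SPARC and RUNX2 were among those with none in either. In each library 4 reached 30 tags, among them COL1A1 with 75 tags in sh-VNGD against 94 in sh-ctrl. Epithelial markers had a start peak in 8 of 8 genes in sh-VNGD and 7 of 8 in sh-ctrl, and 6 reached 30 tags in each library. CDH1 had 138 tags in sh-VNGD against 127 in sh-ctrl, and KRT5 had 20 in sh-VNGD against 10 in sh-ctrl. Blood markers had a start peak in 3 of 7 genes in each library, and all 3 reached 30 tags. Among them SPI1 had 113 tags in sh-VNGD against 105 in sh-ctrl. Liver markers had a start peak in 2 of 4 genes in each library. Of these 1 reached 30 tags, APOA1, with 87 in sh-VNGD against 79 in sh-ctrl. The table holds 1 start per gene, so inner promoters were missed by this count. The part of other cells in the results was not tested.

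**Figure D1:**
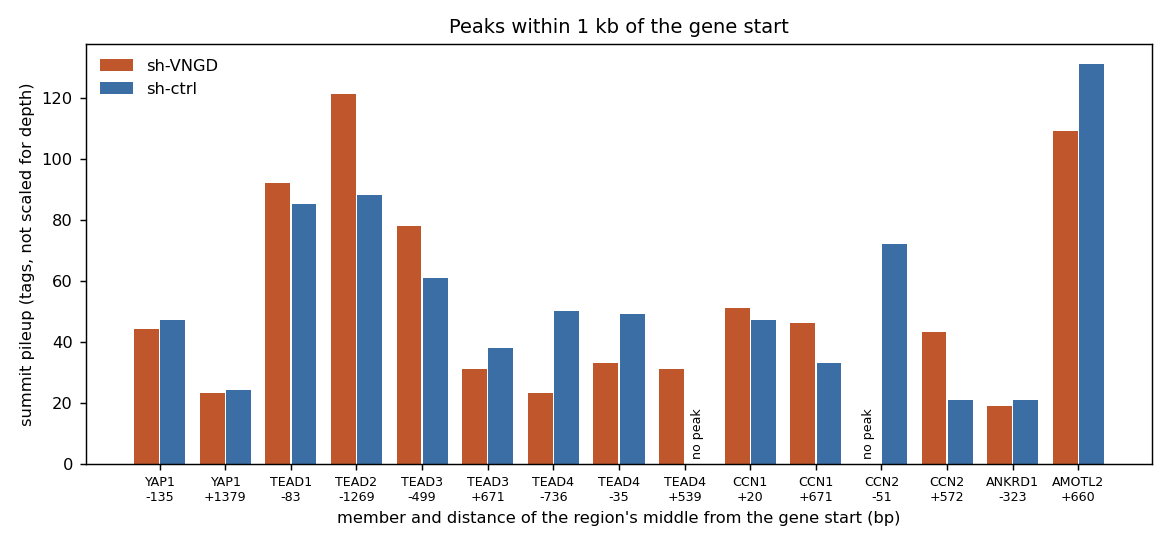
Summit pileup in tags, unscaled for depth, of every region within 1000 bp of the gene start, with sh-VNGD bars on the left of each pair and sh-ctrl bars on the right. The numbers under the names are distances of the regions from the start in bp. Over its start CCN2 had no sh-VNGD peak, against a sh-ctrl peak of 72 tags, and WWTR1 had no peak there.

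Among the coactivators, YAP1 was nearly even. Its start region, at chr11:102109913-102110712, had 44 tags in sh-VNGD against 47 in sh-ctrl, a centred log2 ratio of −0.17 (−0.79 to 0.46). This region covers the printed YAP1 bases. A lower peak 1379 bp downstream had 23 tags in sh-VNGD against 24 in sh-ctrl. The highest YAP1 region of all lay inside the gene, 68015 bp from the start, with 59 tags in sh-VNGD against 52 in sh-ctrl, at 0.11 (−0.45 to 0.68). No other region of the YAP1 window reached 30 tags. Of the weaker shared regions in the YAP1 body, those at 10339 bp and 39685 bp passed 1.5-fold, both with intervals that span 0. There were 10 tags in sh-VNGD against 15 in sh-ctrl at 10339 bp (−1.97 to 0.59). At 39685 bp there were 17 in sh-VNGD against 10 in sh-ctrl (−0.52 to 1.98).

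WWTR1 had no peak in either library within 1000 bp of the start that the table gives. Its highest region, at chr3:149657660-149658740, lay inside the gene 45073 bp from that start, with 102 tags in sh-VNGD against 125 in sh-ctrl, at −0.37 (−0.76 to 0.02). The start used, chr3:149703273, lies inside the gene bounds, whose outer end on this strand is at 149724788. Other starts of the gene were not classed here, so whether this region is a promoter was not settled. It is counted as distal below, as are all 6 strong regions of WWTR1. Further along, the WWTR1 body had a pair of regions that were much lower in sh-VNGD. The region at chr3:149564047-149564493 had 18 tags in sh-VNGD against 52 in sh-ctrl, at −1.60 (−2.46 to −0.80). The region at chr3:149534857-149535541 had 22 tags in sh-VNGD against 42 in sh-ctrl, with an interval from −1.82 to −0.23. The other strong regions of the WWTR1 window did not pass 1.5-fold. The region 121292 bp from the start had 58 tags in sh-VNGD against 55 in sh-ctrl. The one at 154939 bp had 35 tags in sh-VNGD against 28 in sh-ctrl. The one at 190765 bp, downstream of the gene, had 46 tags in sh-VNGD against 52 in sh-ctrl.

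TEAD1 had an even start and uneven regions inside the gene. The table gave no start for TEAD1, TEAD4 and CCN1, and the outer gene end with the higher signal was used for them. At that end TEAD1 had 92 tags in sh-VNGD against 85 in sh-ctrl, at 0.04 (−0.40 to 0.49). The lowest ratio of all strong member regions lay 22677 bp inside, at chr11:12696791-12697404, with 12 tags in sh-VNGD against 47 in sh-ctrl, at −2.04 (−3.09 to −1.10). The distal region of TEAD1 with the highest sh-ctrl peak, at chr11:12723699-12725103, had 59 tags in sh-VNGD against 122 in sh-ctrl, at −1.12 (−1.59 to −0.66). Both intervals lay wholly below 0, as did 14.3% of those of all distal regions, where 9.09% lay wholly above. Both regions were picked by their own values, and the first was strong through sh-ctrl alone. A further 5 strong regions in the TEAD1 body had a sh-ctrl peak and no sh-VNGD peak, of 36, 43, 47, 59 and 45 tags in order from the start. The nearest sh-VNGD peak was 1813 to 3358 bp away from each of these. Where a library lists no peak its tags are unknown, because the threshold depends on local background. Deeper in the gene lay the distal region with the most summed signal, at 125963 bp, which had 82 tags in sh-VNGD against 109 in sh-ctrl, at −0.48 (−0.91 to −0.06). Others were closer, with 55 tags in sh-VNGD against 56 in sh-ctrl at 72439 bp, and 46 in each at 139395 bp. The region at 153828 bp had 69 tags in sh-VNGD against 47 in sh-ctrl, at 0.48 (−0.07 to 1.05).

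TEAD2 and TEAD3 had their highest start regions above, and their strong distal regions below, the centre. The middle of the TEAD2 start region lay at −1269 bp. It had 121 tags in sh-VNGD against 88 in sh-ctrl, at 0.39 (−0.02 to 0.80), the highest member start pileup in sh-VNGD. Its distal regions had 52 tags in sh-VNGD against 61 in sh-ctrl inside the gene, and 28 tags in sh-VNGD against 38 in sh-ctrl downstream. Their ratios were −0.30 and −0.51, both with intervals that span 0. The TEAD3 start region, shared with the end of TULP1, had 78 tags in sh-VNGD against 61 in sh-ctrl, at 0.28 (−0.22 to 0.79). A second strong start region of TEAD3, 671 bp downstream, had 31 tags in sh-VNGD against 38 in sh-ctrl, at −0.37 (−1.10 to 0.36). Its strongest distal region, at chr6:35486114-35486762, had 50 tags in sh-VNGD against 76 in sh-ctrl, at −0.68 (−1.22 to −0.14). The lowest, downstream at chr6:35461301-35461896, had 20 tags in sh-VNGD against 55 in sh-ctrl, at −1.53 (−2.35 to −0.77). All 3 strong shared distal regions of TEAD3 lay below 0. At the ends of its neighbours FANCE and RPL10A, left out of the distal class, 1 region had 70 tags in sh-VNGD against 67 in sh-ctrl, and another had 32 tags in sh-VNGD against 69 in sh-ctrl. One more, at chr6:35470458-35470673, had a peak of 40 tags in sh-VNGD and none in sh-ctrl.

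TEAD4 was the member whose start region was lower past 1.5-fold by centred pileup, with an interval that reaches 0.02. The value fell short of 1.5-fold by unscaled pileups (−0.57), by pileups scaled to all tags read (−0.47) and by fold enrichment (−0.034). Its start region, at chr12:2959197-2959527, had 33 tags in sh-VNGD against 49 in sh-ctrl, at −0.64 (−1.32 to 0.02). Close by, a region at −736 bp had 23 tags in sh-VNGD against 50 in sh-ctrl, at −1.19 (−1.97 to −0.45), and one 1369 bp downstream had 30 tags in sh-VNGD against 63 in sh-ctrl. With peaks within 500 bp joined, TEAD4 had 33 tags in sh-VNGD against 63 in sh-ctrl at its start. A peak of 31 tags in between, 539 bp downstream, was listed for sh-VNGD alone, 142 bp from the nearest sh-ctrl peak. The far end of the gene was even: the region at 74919 bp had 71 tags in sh-VNGD against 66 in sh-ctrl, and the flanking region at 82271 bp had 72 tags in sh-VNGD against 64 in sh-ctrl. In the flank before the gene, at −14435 bp, there were 29 tags in sh-VNGD against 46 in sh-ctrl, at −0.74 (−1.46 to −0.04). The only strong distal member region past 1.5-fold in the other direction lay in TEAD4, at chr12:3004695-3004983, with 35 tags in sh-VNGD against 13 in sh-ctrl, at 1.36 (0.40 to 2.40).

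**Figure D2:**
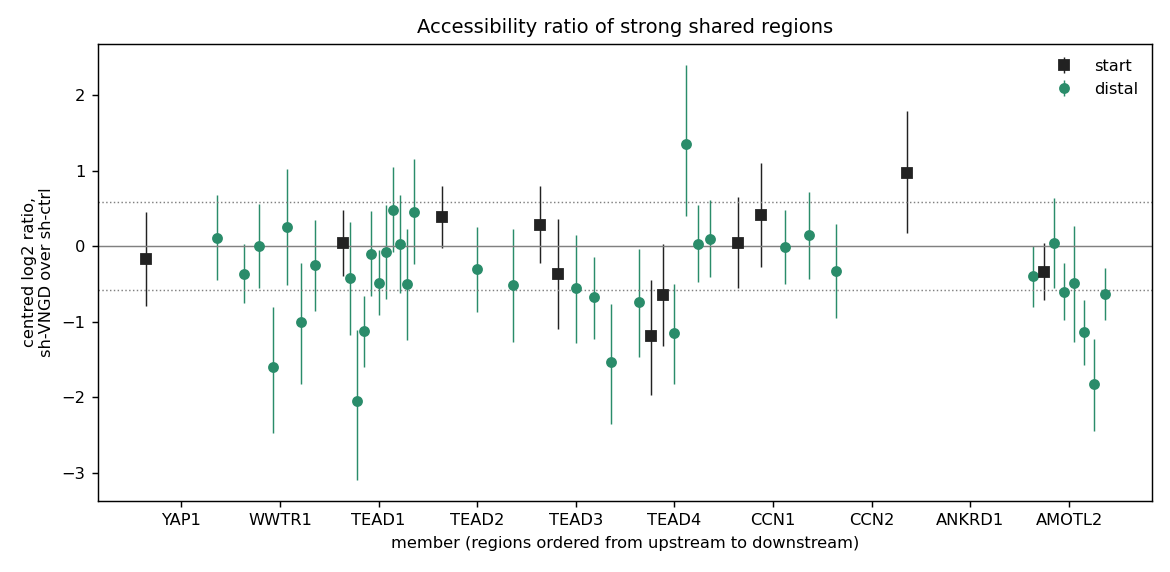
Centred log2 ratio of sh-VNGD over sh-ctrl for each strong region with a peak in both libraries, by member, with 95% counting intervals. Squares are start regions, circles distal regions, and dotted lines mark 1.5-fold. ANKRD1 had no strong region, and 26 of 37 distal circles lie below 0.

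Of the target genes, CCN2 was the one with a strong start peak in sh-ctrl alone. In sh-VNGD no peak was called at chr6:131951220-131951626, where in sh-ctrl a peak of 72 tags covered the start and all 250 printed bases, TEAD motifs included. The nearest sh-VNGD peak lay 129 bp away, inside the gene, in the region chr6:131950509-131951090, with 43 tags in sh-VNGD against 21 in sh-ctrl. Taken alone, this inner region had a centred log2 ratio of 0.96 (0.18 to 1.79). When peaks within 500 bp were joined, an alternative chosen after seeing the data, CCN2 had 43 tags in sh-VNGD against 72 in sh-ctrl, at −0.81 (−1.39 to −0.25). The direction at the CCN2 start therefore rests on whether neighbouring peaks are joined. Tags within 10 kb, counted in a window of 10 kb in all around a summit, were 201 in sh-VNGD against 253 in sh-ctrl at the inner region. Their centred log2 ratio was −0.57, and this window also takes in the CCN2 start. Upstream, the flanking region at −3494 bp had 42 tags in sh-VNGD against 50 in sh-ctrl, at −0.32 (−0.95 to 0.30).

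CCN1, its closest relative in this set, did not show this. Its start region had 51 tags in sh-VNGD against 47 in sh-ctrl, at 0.05 (−0.55 to 0.65). A second start region, 671 bp downstream, had 46 tags in sh-VNGD against 33 in sh-ctrl. Its highest region, 1721 bp from the start, had 73 tags in sh-VNGD against 70 in sh-ctrl. The flanking region at 18660 bp had 58 in sh-VNGD against 50 in sh-ctrl, at 0.14 (−0.43 to 0.72). A peak of 37 tags at −4093 bp was found in sh-VNGD only. It lay 42 bp from a sh-ctrl peak of 46 tags that belonged to a region at an end of DDAH1, which had 46 tags in each library.

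ANKRD1 was weakly accessible in both libraries, and none of its 5 regions reached 30 tags. Its start region, at chr10:90921185-90921636, overlaps the printed bases and had 19 tags in sh-VNGD against 21 in sh-ctrl, at −0.22 (−1.19 to 0.75). A region past the gene had 25 tags in sh-VNGD against 20 in sh-ctrl. Only these 2 of its regions had a peak in both libraries.

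AMOTL2 had the tallest sh-ctrl peaks of the set, and most of its strong regions between 10911 and 24253 bp from the start were lower in sh-VNGD. Its start region had 109 tags in sh-VNGD against 131 in sh-ctrl, at −0.34 (−0.72 to 0.04). The flanking region at −6636 bp, upstream, had 95 tags in sh-VNGD against 119 in sh-ctrl, at −0.40 (−0.80 to 0.0045). Of the 5 strong regions there, 4 were past 1.5-fold, and the region at 16739 bp, with 27 tags in sh-VNGD against 36 in sh-ctrl, was not. Farther out no region was strong, and the one at 35903 bp had 27 tags in sh-VNGD against 28 in sh-ctrl. The region at 10911 bp had 102 tags in sh-VNGD against 147 in sh-ctrl, at −0.60 (−0.98 to −0.22). The region at 17387 bp, chr3:134357571-134358490, had 67 tags in sh-VNGD against 140 in sh-ctrl, at −1.135 (−1.58 to −0.70). Both lie inside the gene. Past its end, the region chr3:134352198-134352636 had 31 tags in sh-VNGD against 104 in sh-ctrl, at −1.82 (−2.45 to −1.23). The highest sh-ctrl peak of all the members lay in the region chr3:134350819-134351510, which had 120 tags in sh-VNGD against 177 in sh-ctrl, at −0.63 (−0.98 to −0.29). By contrast the region 1734 bp from the start had 53 tags in sh-VNGD against 49 in sh-ctrl, at 0.04.

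**Figure D3:**
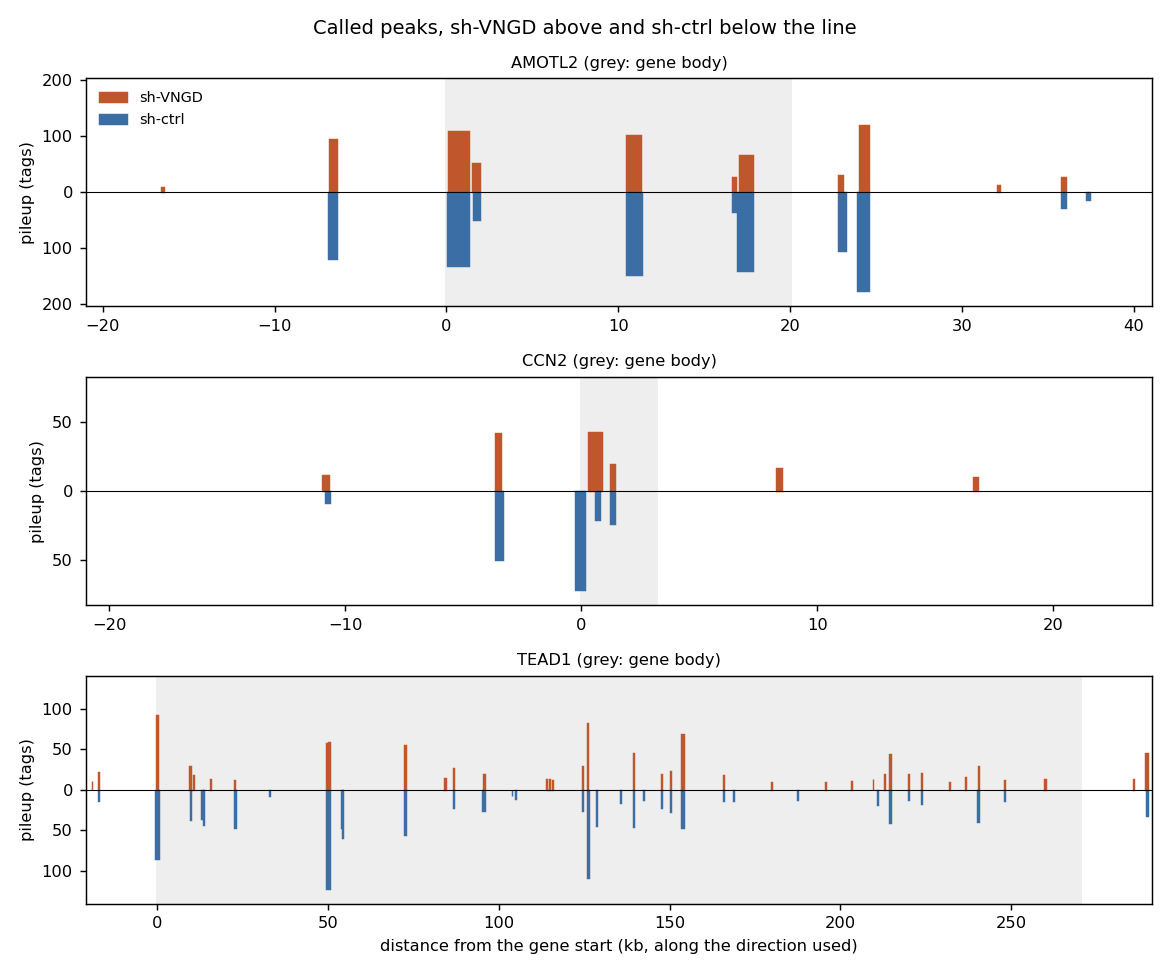
Pileup in tags of every called peak in the windows of AMOTL2, CCN2 and TEAD1 against distance from the start in kb, with sh-VNGD bars above the line and sh-ctrl bars below it. In AMOTL2 the bars at 10911 and 24253 bp reach 102 and 120 tags in sh-VNGD against 147 and 177 tags in sh-ctrl, and the CCN2 start has a bar in sh-ctrl only.

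Start and flanking regions were then compared as classes. The 8 strong shared start regions, taken as the one of each gene with the most summed signal, had a median centred log2 ratio of 0.04, against −0.09 over 11828 gene starts. Past 1.5-fold, 1 of the 8 was lower in sh-VNGD (TEAD4) and 1 higher (CCN2), where 4.25% and 3.75% of all gene starts were. With peaks within 500 bp joined, 2 were lower (TEAD4 and CCN2) and 0 were higher, with no share over all gene starts to set beside them. The median was then −0.06, against −0.09 over all gene starts. The 37 strong shared distal regions had a median of −0.40, against −0.01 over 32674 distal regions of all protein-coding genes. Past 1.5-fold, 12 were lower in sh-VNGD (32.4%), where 14.9% of all distal regions were, and 1 was higher (2.70%), where 13.7% were. Of the 12 lower regions, 5 were strong through sh-ctrl alone, and the 1 higher was strong through sh-VNGD alone. With a mean of both pileups of at least 30 tags as the limit, an alternative added after seeing the data, 10 of 35 were lower, where 12.7% of all distal regions were, and 0 were higher, where 8.86% were. The 12 lower regions came from 5 members: 4 from AMOTL2 and 2 each from WWTR1, TEAD1, TEAD3 and TEAD4. Without AMOTL2 the median was −0.31, and 8 of 30 regions were lower. Regions of 1 gene share a locus and are not independent of each other.

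Position within the window made little difference to these medians. The 26 distal regions inside genes had a median of −0.39, the 8 downstream −0.38 and the 3 upstream −0.40. Member by member the order was not uniform. The start ratio was above the distal median in TEAD1, TEAD2, TEAD3, CCN2 and AMOTL2, by 0.30, 0.79, 0.96, 1.29 and 0.26 on the log2 scale. For CCN2 this order turns with peaks joined, to −0.81 at the start against a distal median of −0.32, and by tags within 10 kb, to −0.57 against −0.54. By fold enrichment it turns in TEAD1, to −0.07 at the start against 0.05, and in AMOTL2, to −0.03 against 0.26. The start ratio was below the distal median in YAP1 by 0.28 and in TEAD4 by 0.68. By fold enrichment YAP1 turns, to 0.071 at its start against 0.058. CCN1 had 0.05 at its start and 0.07 in its distal regions. These distal medians rest on 1 region each in YAP1 and CCN2 and 2 each in TEAD2 and CCN1. TEAD3 had 3, TEAD4 5, AMOTL2 7 and TEAD1 10. The single distal regions of YAP1 and CCN2 had intervals from −0.45 to 0.68 and from −0.95 to 0.30.

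Peaks in 1 library only gave a smaller count. Of 43 strong distal regions, 1 had a sh-VNGD peak only, in CCN1 (2.33%), and 5 a sh-ctrl peak only, all in TEAD1 (11.6%). Over all strong distal regions 3.98% were found in sh-VNGD alone and 3.94% in sh-ctrl alone. Of 13 strong regions at member starts, 1 was found in sh-VNGD alone, beside 3.15% of all strong start regions, and 1 in sh-ctrl alone, beside 1.41%. The other 148 regions of the windows stayed under 30 tags. They comprised 49 with peaks in both libraries, 66 with a sh-VNGD peak alone and 33 with a sh-ctrl peak alone, with median pileups of 14 tags in each of the last 2 sets. Members thus had 44.6% of these weaker regions in sh-VNGD alone and 22.3% in sh-ctrl alone, where all weaker regions had 49.6% and 19.5%. The sh-VNGD library kept 1.37 times the tags of sh-ctrl, and the part of depth in these counts was not tested.

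Signal in the wider neighbourhood of member distal regions was also lower in sh-VNGD. The authors' fold enrichment divides the pileup by the background within 10 kb, or by the genome background where that is higher. Not centred, it had a median log2 ratio of −0.11 at the member distal regions and −0.11 at all distal regions. With fold enrichment in place of pileup, and centred the same way, the member distal median was 0.01 and 6 of 37 regions were lower past 1.5-fold. By that measure 8.89% of all distal regions were lower, and the AMOTL2 distal median was 0.26, against −0.60 by pileup. The tags within 10 kb, recovered from the fold enrichment, had a median log2 ratio per kept tag of −0.61 at 36 member distal regions, against −0.23 over 30047 distal regions. The AMOTL2 window stood lowest, with a median of −1.27 over 8 strong regions. Its tallest sh-ctrl peak had 339 tags within 10 kb in sh-VNGD against 674 in sh-ctrl. TEAD1 had 432 tags in sh-VNGD against 741 in sh-ctrl around the distal region with its highest sh-ctrl peak, and 272 tags in sh-VNGD against 345 in sh-ctrl around the one with the most summed signal, whereas CCN1 had a median of −0.14 over 5 regions. The tags within 10 kb include those of the peaks themselves. Windows of regions that lie close together overlap and count the same tags again, as at 16739 and 17387 bp in AMOTL2. The values of 1 gene are thus not separate measurements. The part of this wider signal in the differences at the summits was not tested.

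**Figure D4:**
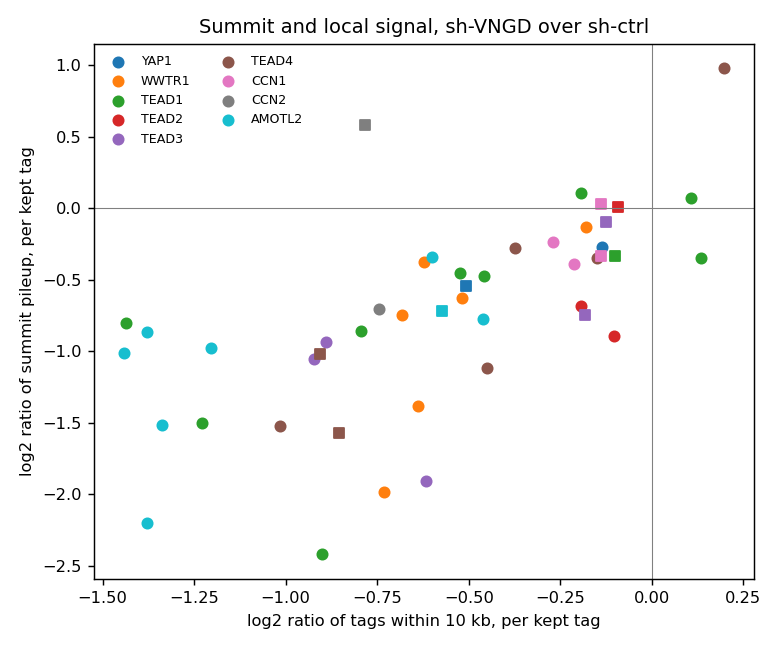
Log2 ratio of the summit pileup (vertical) against that of tags within 10 kb (horizontal), sh-VNGD over sh-ctrl and per kept tag, not centred, for strong shared regions of each member; squares are starts and circles distal regions. All AMOTL2 points lie between −1.44 and −0.46 on the horizontal axis.

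Other genes of the pathway were near the level of all gene starts, −0.09, as lists. The Hippo kinases and their activators had a median of −0.11 over 19 of 22 genes with a strong shared start region. Past 1.5-fold, 1 of the 19 was lower and none higher, where 4.25% of all gene starts were lower and 3.75% higher. The lower one was STK3, a core Hippo kinase, with 43 tags in sh-VNGD against 67 in sh-ctrl, at −0.71. WWC1, a scaffold upstream of the kinases, stood at −0.54, the adaptor gene SAV1 at 0.22 and the kinase gene TNIK at 0.39. Regulators at junctions and the cell surface had a median of −0.10 over 15 of 22 genes. Of these 15, 1 was lower and none higher, beside the same shares of all gene starts. The lower gene was PTPN14, a phosphatase that binds YAP, with 45 tags in sh-VNGD against 101 in sh-ctrl, at −1.24 (−1.78 to −0.72). The polarity gene PATJ stood at −0.55, SCRIB at 0.33 and the phosphatase gene PTPN21 at 0.51.

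Cofactors and partners of TEAD and YAP had a median of −0.19 over 8 of 12 genes, and none passed 1.5-fold in either direction. The coactivator gene NCOA1 stood at −0.31, and the AP-1 genes FOSL2 and JUND at −0.24 and 0.20. Known target genes other than the members had a median of −0.13 over 20 of 24 genes, with 3 lower past 1.5-fold and 2 higher, where 4.25% of all gene starts were lower and 3.75% higher. PTPN14, which is also in this list, and EDN1, which encodes endothelin, were lowest, EDN1 with 68 tags in sh-VNGD against 118 in sh-ctrl, at −0.87 (−1.32 to −0.42). The growth factor binding gene IGFBP3 had 67 tags in sh-VNGD against 37 in sh-ctrl, at 0.78 (0.18 to 1.41). LHFPL6 was highest, with 34 tags in sh-VNGD against 16 in sh-ctrl, at 1.02 (0.12 to 1.97), and was strong through sh-VNGD alone.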

How the data were processed

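ATAC-seq peaks of 2 U2OS libraries were used, 1 for each treatment in the labels. Per the file headers, MACS 2.1.0.20150731 called peaks on each library alone, with no control, tags shifted by 100 bp and extended to 200 bp, 1 tag kept per position and a q cutoff of 0.05. Alignment tools and builds come per the submitters' processing notes: deepTools, Bowtie2 (2.2.5), hg38, GRCh38.p13, and a MACS2 version, 2.1.2, that differs from the headers. The deposited pileup is a signal in whole tags, unscaled for depth. The deposited −log10 q value served only as a filter in an alternative, the deposited −log10 p value was not used, and the deposited fold enrichment, a ratio over local background, as an alternative measure.

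Peaks on the autosomes and sex chromosomes were merged where they shared 1 bp, and each library's highest pileup in a region was taken. Intervals are exact Clopper-Pearson intervals for a ratio of counts. The simulated pileups on which they were tried held counting error alone, so that trial could not show how well they fit these libraries. The intervals cover counting error only. Starts came from the RefSeq promoter table for 15842 of 20037 genes and otherwise from the outer gene end with the higher signal. Tags within 10 kb, in a window of 10 kb in all, were recovered from fold enrichment as (pileup + 1) divided by (background + 1). They came out whole within 0.05 tags for 59.8% of sh-VNGD and 60.4% of sh-ctrl peaks, and the rest sat at the genome background, where none can be read. Analyses used Python 3.11.15, pandas 2.3.3 and SciPy 1.17.1.

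Start regions are those with the most summed scaled signal in both libraries. Named regions were each member's start, its highest distal region, its extreme distal regions past 1.5-fold and strong regions in 1 library only. Other regions named were chosen after their values were seen. From each other pathway list the 2 lowest and 2 highest strong starts were named, except 1 that is not reported here. The members and lists were chosen with earlier results of these data known. Alternatives for scaling, centring, measure, thresholds, overlap, windows and fold were run.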

Additional observations from a re-analysis of the deposited data

How the results depend on the processing

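The distal median of −0.40 and its 12 lower and 1 higher regions moved with the measure and the scaling. Without centring the median was −0.78, with 23 lower, where all distal regions had a median of −0.39 and 33.6% lower. The start regions then had 2 lower and 0 higher. By fold enrichment the distal median was 0.0063 with 6 lower, where 8.89% of all distal regions were lower. By that measure 0 start regions were lower, and the AMOTL2 distal median turned to 0.26. Unscaled pileups gave 0 lower start regions. Scaling to all tags read gave 3 higher distal regions, where 21% of all distal regions were higher, and 0 lower start regions. With no minimum pileup there were 101 shared regions, 69 in sh-VNGD only and 39 in sh-ctrl only, against 52, 3 and 6 strong ones. Over all regions of the genome the shares were 42.4%, 41.2% and 16.5%, and over strong ones 93.3%, 3.75% and 3%. Of 83 distal regions 19 were then lower and 4 higher, where 11.7% of all distal regions were lower and 11.1% higher. A minimum of 50 tags gave 32, 0 and 2 regions by library, and 0 start regions past the fold in either direction. Of 24 distal regions 7 were then lower and 0 higher, where 14.2% of all distal regions were lower and 7.94% higher. Windows of 50 kb gave 2 higher of 49 distal regions, where 14.2% of all distal regions were higher. At 2-fold, 0 start regions passed in either direction. No share over all gene starts is given beside the start counts of the alternatives, here or below. In the main setting 4.25% of all gene starts were lower and 3.75% higher. The changes in the start counts are therefore not read as a result about the members.

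Alternatives added after seeing the data were joined peaks, tags within 10 kb and a mean of both pileups of at least 30 tags. The last gave 0 higher distal regions, where 8.86% of all distal regions were higher. Joining peaks within 500 bp left 0 strong regions in sh-VNGD only and 3 in sh-ctrl only, gave 2 lower and 0 higher start regions and turned CCN2 to −0.81. Tags within 10 kb gave 0 higher regions in both classes, where 6.14% of all distal regions were higher, and put CCN2 at −0.57. The cause of these shifts was not tested, except that fewer or more regions enter under other minimum pileups. Of 136 summary values, 104 stayed within 1.5 times the count or within the interval of the median over regions. Of 304 values of single members, 289 stayed within the counting interval or the range over their regions. These limits are wide: the TEAD4 start went to −0.034 by fold enrichment and the CCN2 distal median to 0.24 with 50 kb windows. No paired analysis was possible because each group has 1 library. Low pileups limit the precision: 12 tags in sh-VNGD against 47 in sh-ctrl gave an interval from −3.09 to −1.10.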
